A study of Homo sapiens with 10 samples.

Results

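The 9 genes described here encode the parts of the major histocompatibility complex (MHC) class I pathway that display peptides on the cell surface. They are the heavy chains HLA-B, HLA-C, HLA-E, HLA-F and HLA-G, the light chain B2M, the peptide transporter subunits TAP1 and TAP2, and tapasin, TAPBP. Members were chosen by name, and every array probe whose transcript accession belongs to one of these genes was taken, which gave 14 of the 42405 probes. Class I molecules form when a heavy chain pairs with β2-microglobulin and binds a peptide that the proteasome has cut in the cytosol and the TAP transporter has moved into the endoplasmic reticulum. Tapasin holds the empty molecule beside the transporter while the peptide is selected. HLA-B and HLA-C are the classical heavy chains that show peptides to CD8 T cells, and HLA-E, HLA-F and HLA-G are the less polymorphic, nonclassical ones. Interferon-γ raises the transcription of most of these genes, and platelets and their precursors carry class I molecules on their surface.

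The study measured total RNA of MEG-01, a human megakaryoblastic leukemia cell line that carries a BCR-ABL1 fusion. Cells received by nucleofection either 200 nM of a precursor of miR-1225-3p (n = 5) or 200 nM of a scrambled negative control precursor (n = 5), and were collected 24 hours later. The comparison asks which mRNAs differ when this microRNA is in excess. Labels call the samples biological replicates of a single cell line, and the source label of the scrambled samples reads as untreated, whereas their titles name a scrambled transfection, which was followed here.

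Each sample was hybridized to a one-colour Agilent array. Values are log2 signals normalized across the 10 arrays, and a fold change is the difference of group means on that scale, miR-1225-3p minus scrambled. A probe's brightness depends on its own binding, so levels were compared between groups and never between probes. The 10 arrays lay on 2 slides, and each slide held both groups. On the first principal component, with 69.6% of the variance, the replicate 5 array of the miR-1225-3p group, at 56.74, fell within the range of the scrambled ones (48.65 to 79.87), whereas the remaining 4 arrays of its group were at -133.4 to -52.98. All 10 arrays were kept, and for the members and the regulators, chaperones and other genes named below, calls that change without this array are given with the value they then take. Of 11 megakaryocytic and erythroid marker genes with a probe, 8 were well above background on all 10 arrays and PF4 on none. The log2 of their summed signal was 13.26 to 13.54 with miR-1225-3p and 13.75 to 13.80 with scrambled, and its part in the results below was not tested. Limma called 2 of the 10 tested lineage markers, both lower with miR-1225-3p, against 35.0% of all genes tested. They were ITGA2B at -1.39 (adjusted p = 0.0437) and NFE2 at -0.43 (adjusted p = 0.0255). Without miR-1225-3p replicate 5 limma called 5 of the 10 lineage markers, all lower, against 55.4% of all genes tested. Of 20 markers of T cells, B cells, monocytes, epithelial cells and fibroblasts, several were well above background on no array (among them CD2, MS4A1, CDH1, COL1A2, COL3A1 and DCN), while CD3D, CD79A, CD14, CSF1R, EPCAM, KRT8 and KRT18 were so on all. Of the 11 that could be tested, limma called 3, all higher with miR-1225-3p, against 35.0% of all genes tested. They were CD3E at 1.96 (adjusted p = 0.0327), FCGR3A at 1.35 (adjusted p = 0.0225) and EPCAM at 0.90 (adjusted p = 0.0156). CD3E was well above background on only 3 miR-1225-3p arrays and 1 scrambled array. The other tested T cell marker, CD3D, was at -0.13 (adjusted p = 0.616). Neither KRT8 (-0.47, adjusted p = 0.179) nor KRT18 (0.04, adjusted p = 0.781) was called, nor were CD14 (0.36), CSF1R (0.15) and COL1A1 (-0.75). The 2 tested B cell markers, CD79A (-1.47, adjusted p = 0.0626) and CD79B (-0.73, adjusted p = 0.103), were lower with miR-1225-3p and were not called. Without miR-1225-3p replicate 5 both were called lower, at -1.85 (adjusted p = 0.0120) and -0.90 (adjusted p = 0.0387). The log2 summed signals of the lists, miR-1225-3p against scrambled, were 11.04 to 11.99 against 11.34 to 11.71 (T cell), 8.87 to 11.97 against 11.21 to 12.91 (B cell), 7.40 to 8.86 against 7.52 to 8.07 (monocyte), 13.09 to 13.72 against 12.96 to 13.15 (epithelial) and 5.25 to 6.69 against 5.65 to 6.22 (fibroblast). Their part in the results was not tested. In such bulk RNA, fewer cells with a transcript and less of it per cell cannot be told apart.

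The transfected microRNA and the promoters of the genes are shown first, since the groups differ by it and since several of these promoters carry the same short element. The mature sequence, from RefSeq, is given with its seed (bases 2 to 8) in capitals. Seed matches in the mRNAs were not tested.

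hsa-miR-1225-3p: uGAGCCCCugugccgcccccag

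Interferon regulatory factors (IRF) bind elements built around AANNGAAA, which reads TTTCNNTT on the other strand. RefSeq windows of 300 bases, from 250 before to 50 after a gene's start, were searched on both strands, with overlapping matches counted. The core was in 7 of the 11 windows of 8 members (1 each of HLA-B, HLA-C, HLA-F, B2M, TAP1, TAP2 and TAPBP, none of HLA-G) and in 22.8% of all 35116 windows. No window was at hand for HLA-E. The 60 bases around the core are printed for 6 genes that went different ways in the comparison, read along the gene's strand, in build GRCh38.p14, with the core in capitals.

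HLA-B, chr6:31357301-31357360, minus strand: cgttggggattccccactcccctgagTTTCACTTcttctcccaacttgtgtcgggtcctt
HLA-F, chr6:29723252-29723311, plus strand: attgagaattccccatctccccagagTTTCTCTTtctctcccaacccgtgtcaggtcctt
B2M, chr15:44711352-44711411, plus strand: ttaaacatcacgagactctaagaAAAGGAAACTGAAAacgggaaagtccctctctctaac
TAP1, chr6:32853802-32853861, minus strand: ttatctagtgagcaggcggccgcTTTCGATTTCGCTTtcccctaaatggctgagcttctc
TAP2, chr6:32838765-32838824, minus strand: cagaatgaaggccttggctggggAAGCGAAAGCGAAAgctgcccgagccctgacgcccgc
TAPBP, chr6:33314079-33314138, minus strand: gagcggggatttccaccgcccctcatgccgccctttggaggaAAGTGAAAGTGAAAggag

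B2M, TAP2 and TAPBP each hold 2 overlapping copies of the core on the gene's strand. TAP1 holds 2 overlapping copies on the other strand, where HLA-B and HLA-F hold 1 each. In the full windows, CCAAT, the letters that nuclear factor Y binds, was in a window of 6 members (HLA-B, HLA-C, HLA-F, HLA-G, B2M, TAP1) and in 34.6% of all windows. TGACG, part of the element that CREB binds, was in a window of 4 members (HLA-B, HLA-C, B2M, TAP2) and in 24.6% of all windows. GGGANTTCC, a form of the NF-κB element, was in TAPBP only among the members and in 1.85% of all windows. Other forms of that element were not searched, and a stretch such as ggggattcccc in the HLA-B sequence above cannot match this one. Whether the other members lack an NF-κB element was therefore not tested. TAP1 starts 488 bases from the start of PSMB9, an immunoproteasome subunit, and both are read outwards from the stretch between them.

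In the comparison, 6 of the 9 genes passed an adjusted p of 0.05 by limma over all 17379 genes tested, 5 of them lower and 1 higher with miR-1225-3p. HLA-E, HLA-F, HLA-G, TAP1 and TAPBP fell, TAP2 rose, and HLA-B, HLA-C and B2M did not pass. On the authors' normalized values 8 passed, HLA-B (-0.42, adjusted p = 0.0386 by limma) and HLA-C (-0.39, adjusted p = 0.0268) among them and B2M again not. Of all genes tested on the authors' values, 5278 of 13297 passed. On the values normalized here the background was high too, since 35.0% of all 17379 genes tested passed, 18.1% lower and 17.0% higher. The members' median log2 fold change was -0.36, against -0.06 over all genes tested. In 4 members (HLA-E, HLA-G, TAP1, TAPBP) the 5 arrays of one group all lay beyond the 5 of the other, as in 12.7% of all genes tested. In 2 members (HLA-F, TAPBP) the fall was over 2-fold, as in 11.7% of all genes tested. All 9 genes were well above background on all 10 arrays. HLA-E, HLA-F and TAPBP passed in each of the 10 fits that left out an array, whereas HLA-G, TAP1 and TAP2 did not, so that most of these fits called 3 members. Without miR-1225-3p replicate 5, 8 of 9 passed, 7 lower and 1 higher, with B2M as the exception, against 55.4% of all genes tested.

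**Figure D1:**
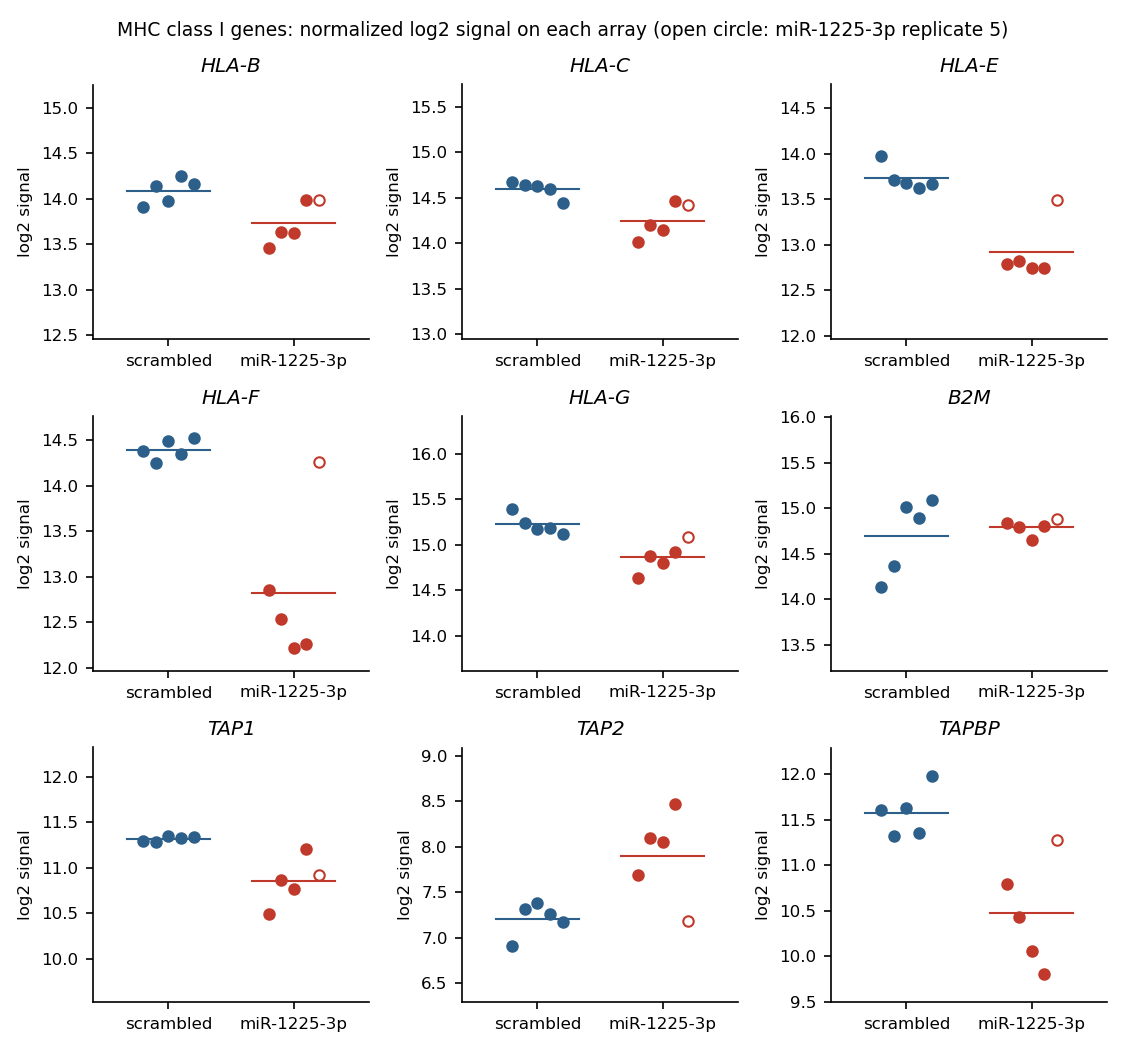
Normalized log2 signal (y axis, 2.8 units in each panel) of the 9 genes on the 5 scrambled (blue) and 5 miR-1225-3p (red) arrays, with lines at the group means and an open circle for miR-1225-3p replicate 5. The open circle lies with the scrambled arrays for HLA-F and TAP2, and B2M shows most spread among the scrambled arrays.

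Among the heavy chains, the largest difference was that of HLA-F, a nonclassical heavy chain that can reach the surface without peptide. Its brightest probe gave log2 signals of 12.86, 12.54, 12.21, 12.27 and 14.26 on miR-1225-3p replicates 1 to 5 and of 14.38, 14.25, 14.50, 14.35 and 14.52 on the scrambled arrays. The first 4 miR-1225-3p arrays lay more than a log2 unit below every scrambled array, and the replicate 5 array lay just inside the scrambled range. The log2 fold change was -1.57 ± 0.35 (SE, n = 5 per group), a signal 2.97-fold lower, with an adjusted p of 0.0153 by limma. Without replicate 5 it was -1.93 (adjusted p = 3.77e-05). The second HLA-F probe, which matches another transcript and was far dimmer, also fell, by 0.70 on the log2 scale (adjusted p = 0.0337 by limma over 20648 probes), with values of 5.81 to 6.69 against 6.57 to 7.37.

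HLA-E, whose product carries peptides from the leaders of other class I heavy chains to the NKG2A receptors of NK cells, gave 12.79, 12.82, 12.74, 12.74 and 13.50 with miR-1225-3p. The scrambled arrays gave 13.98, 13.72, 13.68, 13.63 and 13.66. The groups did not overlap, and again replicate 5 was the miR-1225-3p array nearest to the scrambled ones. The log2 fold change was -0.81 ± 0.17 (SE), with an adjusted p of 0.0142 by limma and an exact permutation p of 0.00794, the smallest that 5 against 5 arrays can give. It was -0.96 without replicate 5 (adjusted p = 0.000156).

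HLA-G, best known from the placenta, gave 14.64, 14.87, 14.80, 14.92 and 15.09 with miR-1225-3p and 15.39, 15.24, 15.17, 15.19 and 15.12 with scrambled. The groups were separated, though by only a few hundredths of a log2 unit at replicate 5. The log2 fold change of -0.36 ± 0.12 (SE) had an adjusted p of 0.0467 by limma, and leaving out any single array other than miR-1225-3p replicate 5 brought that to between 0.0603 and 0.100.

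The classical heavy chain HLA-B gave 13.46, 13.64, 13.62, 13.99 and 13.99 with miR-1225-3p against 13.91, 14.14, 13.97, 14.25 and 14.16 with scrambled. The groups overlapped, and the log2 fold change of -0.35 ± 0.15 (SE) did not pass (adjusted p = 0.0830 by limma). A second HLA-B probe gave -0.25 (adjusted p = 0.223 over all kept probes). HLA-C gave 14.02, 14.20, 14.15, 14.46 and 14.42 against 14.67, 14.64, 14.63, 14.60 and 14.45, so that only its lowest scrambled array lay within the range of the other group. Its log2 fold change was -0.35 ± 0.13 (SE) and did not pass either (adjusted p = 0.0550 by limma). Without miR-1225-3p replicate 5 both passed, HLA-B at -0.41 (adjusted p = 0.0285) and HLA-C at -0.39 (adjusted p = 0.0199). Heavy chain transcripts are alike over long stretches, so a probe for one may have read some of another, and the values of single heavy chains are uncertain to that extent.

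B2M, the light chain shared by all class I molecules, showed no such difference. Its probe, spotted 10 times per array, gave 14.84, 14.80, 14.65, 14.80 and 14.88 with miR-1225-3p and 14.14, 14.37, 15.02, 14.89 and 15.09 with scrambled. The miR-1225-3p arrays lay close together (SD 0.09) within the wide range of the scrambled arrays (SD 0.42), of which replicates 1 and 2 were low. The log2 fold change was 0.09, with a 95% interval from -0.34 to 0.53 and an adjusted p of 0.716 by limma, and without scrambled replicate 1 it was -0.05. An unequal change was then read as the difference of the log2 signals of 2 genes within each array. HLA-F minus B2M fell by 1.67 log2 units with miR-1225-3p, and no array of one group lay within the other (exact permutation p = 0.00794). TAPBP minus B2M fell by 1.20 (exact permutation p = 0.00794) and HLA-E minus B2M by 0.91 (exact permutation p = 0.0159). The differences of HLA-B, HLA-C and HLA-G from B2M were -0.44, -0.44 and -0.45, with exact permutation p-values of 0.0714, 0.111 and 0.111. These p-values are two-sided and not adjusted for the 7 pairs compared.

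**Figure D2:**
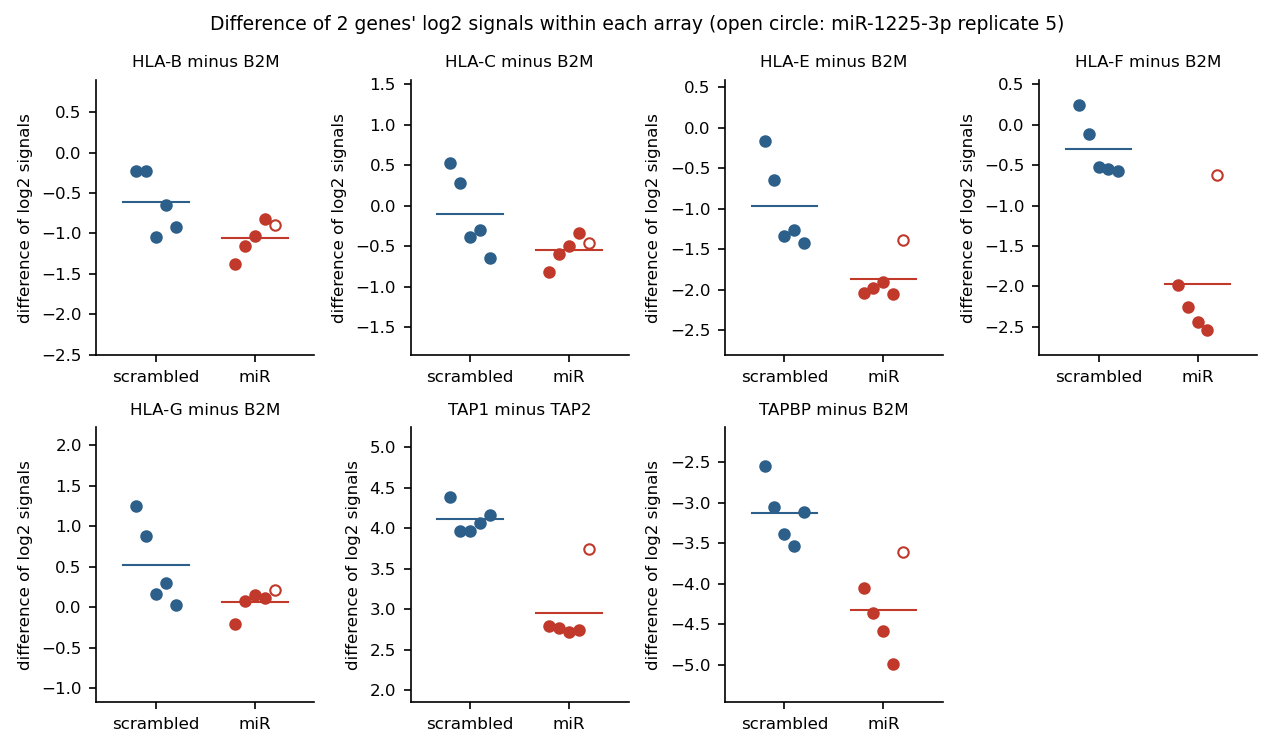
Difference of the log2 signals of 2 genes on the same array (y axis, 3.4 units in each panel) for the 7 pairs compared, on scrambled (blue) and miR-1225-3p (red) arrays, with lines at the group means and miR-1225-3p replicate 5 as an open circle. The groups do not overlap for HLA-F minus B2M, TAP1 minus TAP2 and TAPBP minus B2M.

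The 2 subunits of the peptide transporter, which work only as a pair, went opposite ways. TAP1 gave 10.49, 10.86, 10.77, 11.21 and 10.93 with miR-1225-3p, all below the scrambled arrays at 11.30, 11.29, 11.35, 11.32 and 11.33. The scrambled values were nearly the same on all 5 arrays (SD 0.03), and replicate 4 was the miR-1225-3p array nearest to them. TAP1 fell by 0.47 on the log2 scale (SE 0.14, adjusted p = 0.0315 by limma).

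TAP2 gave 7.69, 8.10, 8.06, 8.47 and 7.18 with miR-1225-3p and 6.92, 7.32, 7.38, 7.26 and 7.17 with scrambled. The first 4 miR-1225-3p arrays were higher than all scrambled arrays, and replicate 5 lay within them. The log2 fold change was 0.69 ± 0.23 (SE), 1.61-fold higher, with an adjusted p of 0.0396 by limma, and 0.87 without replicate 5 (adjusted p = 0.00226). A second TAP2 probe was not kept, being well above background on 0 miR-1225-3p and 2 scrambled arrays, so the rise of TAP2 rests on 1 probe. The difference TAP1 minus TAP2 was 2.72 to 3.74 with miR-1225-3p and 3.97 to 4.38 with scrambled, with no overlap, so that it fell by 1.16 log2 units (exact permutation p = 0.00794). Under the other scalings of the arrays this change was between -1.22 and -0.82.

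The calls of TAP1, TAP2 and HLA-G were close to the threshold. Without the filter on dim probes they had adjusted p-values of 0.0608, 0.0778 and 0.0857 by limma, and under quantile normalization those of TAP1 and HLA-G were 0.0599 and 0.455. TAP1 did not pass when miR-1225-3p replicate 1, 2 or 3 or any scrambled array was left out (adjusted p between 0.0549 and 0.0728), and TAP2 did not pass when any array but miR-1225-3p replicate 5 was left out (adjusted p between 0.0536 and 0.0916). Without miR-1225-3p replicate 5, HLA-G was at -0.42 (adjusted p = 0.0101) and TAP1 at -0.49 (adjusted p = 0.0172). With the slide as a block, TAP2 had an adjusted p of 0.0588 and HLA-G of 0.0546, whereas HLA-E, HLA-F, TAP1 and TAPBP still passed. Within slide 1, HLA-E (-0.97), HLA-F (-1.77) and TAPBP (-1.12) passed, and within slide 2, which holds replicate 5, the log2 fold changes of these genes were -0.68, -1.39 and -0.96 and no gene on the array passed.

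TAPBP, tapasin, was measured by 3 probes. The brightest gave 10.79, 10.43, 10.06, 9.81 and 11.28 with miR-1225-3p and 11.60, 11.32, 11.63, 11.36 and 11.98 with scrambled. Every miR-1225-3p array was below every scrambled one, replicate 5 by a few hundredths of a log2 unit. TAPBP fell by 1.10 on the log2 scale (SE 0.27), a signal 2.15-fold lower, with an adjusted p of 0.0182 by limma, and by 1.30 without replicate 5 (adjusted p = 0.00107). The second probe gave 8.24, 8.34, 8.13, 8.16 and 8.84 against 9.72, 9.29, 9.09, 9.03 and 9.10, also without overlap, a fall of 0.90 (adjusted p = 0.0148 by limma over all kept probes). The dimmest gave -0.42 and did not pass (adjusted p = 0.0554). Over all members 8 of the 13 kept probes passed, against 35.0% of all 20648 kept probes, and 11 had a negative log2 fold change.

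**Figure D3:**
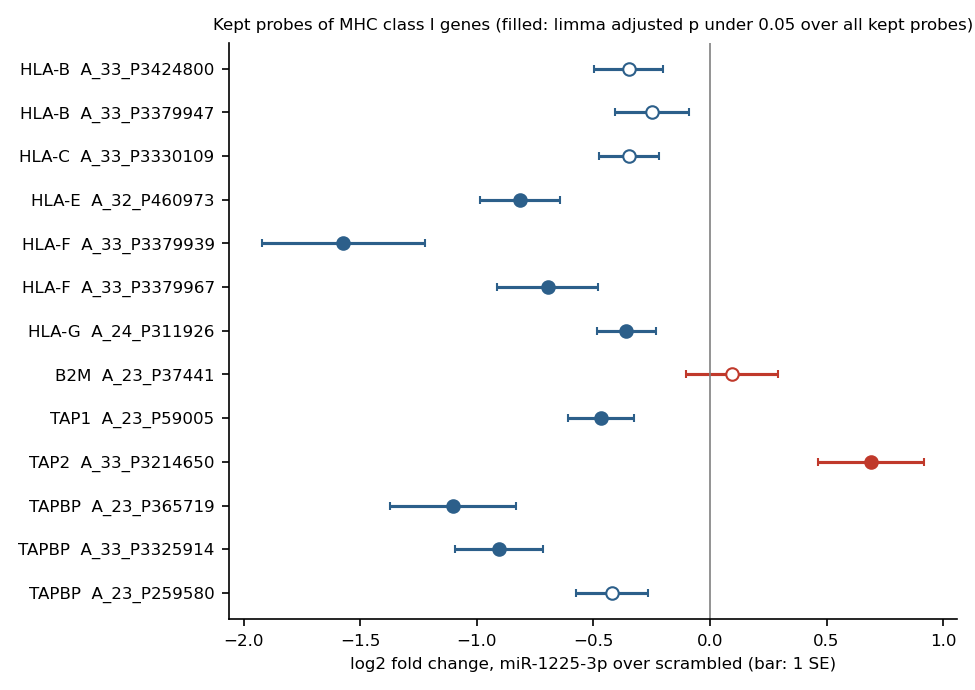
Log2 fold change of each of the 13 kept probes, miR-1225-3p over scrambled, with bars of 1 SE from limma and filled symbols for an adjusted p under 0.05 over all kept probes. The 3 TAPBP probes and both HLA-F and both HLA-B probes lie on the same side of 0, and TAP2 and B2M are the probes on the right.

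The direction of the smaller differences depended on how the arrays were scaled. When each array was only shifted to a common 75th percentile, the median over all genes moved up by 0.22 log2 units, to 0.16, and HLA-B, HLA-C, HLA-G and TAP1 turned to 0.27, 0.29, 0.31 and 0.01, none of them past the threshold, while B2M passed as higher (0.75, adjusted p = 0.0271 by limma). Under the same scaling HLA-F (-0.97) and TAPBP (-0.63) fell and TAP2 (0.82) rose with an adjusted p under 0.05, and HLA-E kept its sign but did not pass (-0.23, adjusted p = 0.256). Of all calls, 48.4% were higher with cyclic loess and 63.8% with the 75th percentile. The share was 59.1% under quantile normalization, whose median over all genes was 0.14 above that of cyclic loess, and 13.7% without normalization, whose median was 0.20 below. HLA-E, HLA-F and TAPBP were lower and TAP2 was higher under every one of these scalings, although none of the 4 passed without normalization.

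**Figure D4:**
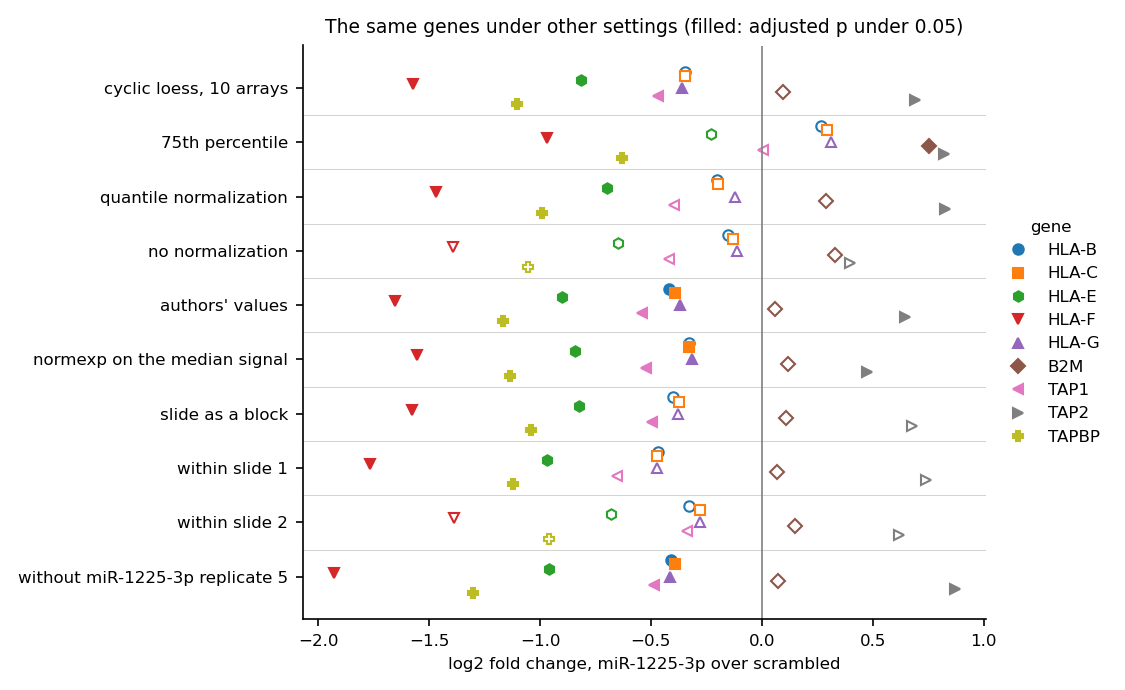
Log2 fold change of the 9 genes, miR-1225-3p over scrambled (x axis), under cyclic loess and 9 other settings (rows), filled where the adjusted p was under 0.05. HLA-F, TAPBP and HLA-E stay left of 0 and TAP2 right of it in every row, whereas HLA-B, HLA-C, HLA-G and TAP1 cross it under the 75th percentile.

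The remaining genes of the pathway were read from 7 lists with 67 genes, of which 51 could be tested. Of these, 24 passed, 9 higher and 15 lower, and the median over them was -0.21 on the log2 scale. Over all genes tested, 35.0% passed, a share that the counts of the single lists below are also read against. The count was 10 without miR-1225-3p replicate 2 or 3 and 33 without replicate 5, where 55.4% of all genes passed, and lay between 11 and 16 when one of the other arrays was left out.

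Of 10 genes of peptide loading, trimming and entry into the endoplasmic reticulum, 5 passed, 2 higher and 3 lower. HSPA5, the chaperone BiP, rose by a log2 fold change of 1.17 (adjusted p = 0.0136 by limma), and ERAP1, which trims peptides to class I length, by 0.69 (adjusted p = 0.0315). LNPEP, an endosomal trimming peptidase, fell by 1.45 (adjusted p = 0.0368) and CANX, calnexin, which folds new heavy chains, by 1.02 (adjusted p = 0.0309). A second kept CANX probe was at -0.89 and did not pass (adjusted p = 0.0826 by limma over all kept probes). LNPEP reached a signal well above background on only 3 of 5 arrays with miR-1225-3p, and after normexp background correction it was at -0.56 and did not pass (adjusted p = 0.0566). Without replicate 5 the 4 genes were at 1.37, 0.78, -1.82 and -1.31 and passed. The third to fall, PDIA3 (-0.79, adjusted p = 0.0478), a disulfide isomerase of the loading complex named after its values were seen, had a second kept probe that went the other way (1.03, adjusted p = 0.0148 over all kept probes), so its direction is not settled. HSPA5 passed in all 10 fits without an array, and ERAP1, LNPEP and CANX in 3, 1 and 3 of them, with adjusted p up to 0.0767, 0.0859 and 0.0749.

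Of 6 genes of the immunoproteasome and its activator, which cut peptides fit for class I, 4 passed, 1 higher and 3 lower. POMP, the maturation factor of all proteasomes, rose by 1.59 (adjusted p = 0.00338 by limma) with 8.01 to 8.39 against 6.29 to 6.80. PSME1, a subunit of the PA28 activator, fell by 1.53 (adjusted p = 0.0148), with 7.59 to 7.89 on miR-1225-3p replicates 1 to 4, 9.44 on replicate 5 and 9.38 to 9.81 on the scrambled arrays. PSMB9, the neighbour of TAP1, fell by 0.87 (adjusted p = 0.0454), and passed in only 2 of 10 fits without an array (adjusted p up to 0.102), whereas POMP and PSME1 passed in all. Without replicate 5, POMP was at 1.65, PSME1 at -1.88 and PSMB9 at -1.08. Of the 4 genes of the constitutive list, PSMB7 rose by 0.52 (adjusted p = 0.0227) and PSMB5 fell by 0.34 (adjusted p = 0.0428), although PSMB5 turned to 0.21 under the 75th percentile, and they passed in 5 and 1 of the fits without an array (adjusted p up to 0.0579 and 0.0992).

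Of 19 tested regulators, 10 passed, 3 higher and 7 lower, and the largest falls were those of IFNGR2, TYK2 and IFNGR1. IFNGR2, the signalling chain of the interferon-γ receptor, gave 4.04, 3.29, 3.41 and 2.78 on miR-1225-3p replicates 1 to 4, 8.85 on replicate 5 and 8.43 to 9.07 on the scrambled arrays. Only 2 of the 5 miR-1225-3p arrays had it well above background, so its log2 fold change of -4.40 (adjusted p = 0.0156 by limma) is poorly bounded in size. Its partner IFNGR1, named after its values were seen, fell by 2.22 (adjusted p = 0.0159) and was well above background on all 10 arrays. TYK2, a kinase of the type I interferon receptor, fell by 2.58 (adjusted p = 0.0335), again with 2 of 5 arrays of that group well above background. After normexp correction IFNGR2 was at -1.995 (adjusted p = 0.0146), while TYK2 was at -0.96 and did not pass (adjusted p = 0.0838). Without replicate 5, IFNGR2 was at -5.50, IFNGR1 at -2.76 and TYK2 at -3.34.

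IRF1, an interferon-induced factor that binds the core shown above, fell by 1.20 on the log2 scale (adjusted p = 0.0265 by limma), with 5.85 to 6.38 on miR-1225-3p replicates 1 to 4, 7.82 on replicate 5 and 7.32 to 8.15 with scrambled, and it was at -0.71 after normexp correction and at -1.53 without replicate 5, passing in both. NFYB, a nuclear factor Y subunit, rose by 1.20 (adjusted p = 0.0150) and NFKB1, the p50 subunit of NF-κB, by 0.76 (adjusted p = 0.0217). RELA, the p65 subunit of NF-κB, named after its values were seen, went the other way, at -1.35 (adjusted p = 0.0258). Its second probe was at -1.46 (adjusted p = 0.0512 by limma over all kept probes). RELA passed in 5 of the 10 fits without an array (adjusted p up to 0.0653), and was at -1.69 without replicate 5. RFX5, a subunit of the complex that binds MHC promoters, was at 0.51 without overlap between groups but did not pass (adjusted p = 0.0532), whereas without replicate 5 it was at 0.64 and passed (adjusted p = 0.00763). NLRC5, the class I transactivator, was at -0.70 (adjusted p = 0.0712) and well above background on 1 miR-1225-3p and 3 scrambled arrays, so its level was near the limit of the probe, and it passed without replicate 5 at -0.81 (adjusted p = 0.0372). NFYB, IFNGR1 and IFNGR2 passed in all 10 fits without an array, NFKB1 in 8, IRF1 in 3 and TYK2 in 1, with adjusted p up to 0.0560, 0.0671 and 0.0777 for the last 3.

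Outside the classical pathway, ULBP1, a class I-like ligand of the NK cell receptor NKG2D, rose by 1.14 (adjusted p = 0.0138 by limma) and was the only one of 7 class I-like genes to pass. Of 12 class II genes only 4 could be tested, the others having no kept probe, and HLA-DQB1 alone passed, at 1.06 (adjusted p = 0.0184) with 3 of 5 scrambled arrays well above background, and was at 0.34 after normexp correction (adjusted p = 0.0398). HLA-J, a class I pseudogene whose sequence resembles the heavy chains, fell by 1.08 (adjusted p = 0.0180), with 11.83 to 12.46 on miR-1225-3p replicates 1 to 4, 13.39 on replicate 5 and 13.40 to 13.51 with scrambled. These 3 genes passed in each of the 10 fits without an array, and were at 1.33, 1.26 and -1.34 without replicate 5.

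**Figure D5:**
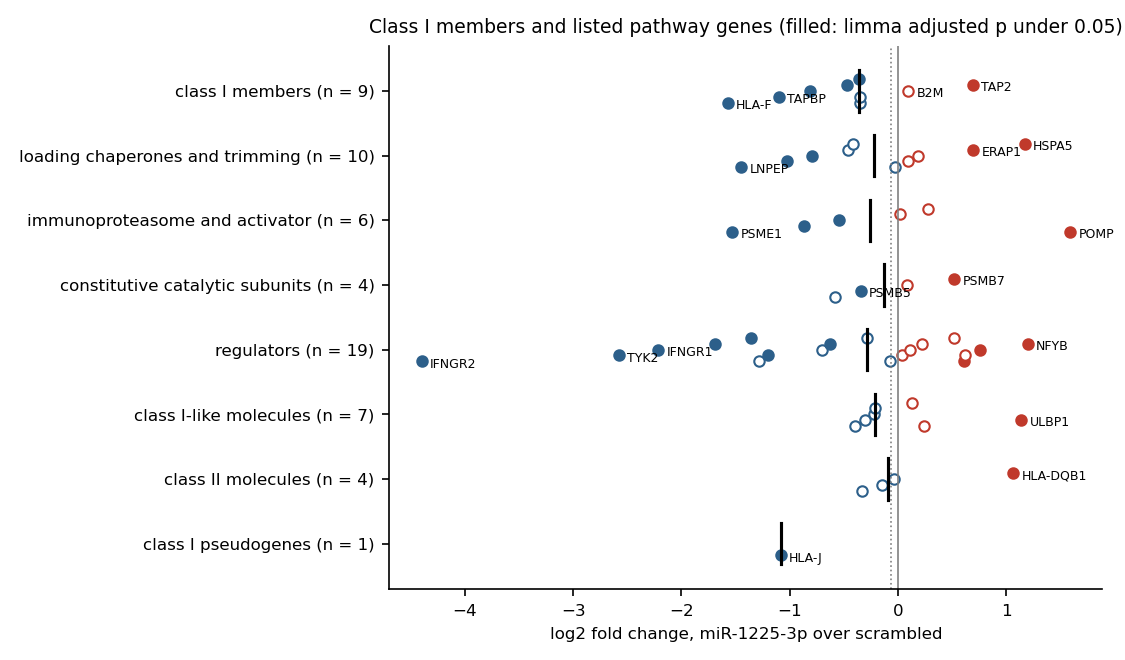
Log2 fold change, miR-1225-3p over scrambled (x axis), of the 9 class I genes and of the tested genes of each pathway list (rows), filled where the limma adjusted p was under 0.05, with a black line at each list's median and a dotted line at the median of all genes tested (-0.06). Every list with more than 1 tested gene holds values on both sides of 0, and IFNGR2, TYK2 and IFNGR1 lie farthest to the left.

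Members differed in how alike their patterns were over the 10 arrays. After the mean of the scrambled arrays was subtracted from each gene, the root mean square difference was smallest between HLA-C and HLA-G (0.07 log2 units), and HLA-B, HLA-C, HLA-G and TAP1 lay within 0.16 of each other. HLA-F and TAPBP differed by 0.43, HLA-F and HLA-E by 0.64, and HLA-F and TAP2, the farthest apart, by 1.80. Among 11982 other genes well above background on all arrays, those most like HLA-F were RNF167 (0.11), KIF21B (0.11) and CDC25B (0.14). HLA-E was closest to S100A16 (0.06), SUPT5H (0.07) and TBRG4 (0.07), TAPBP to POLDIP3 (0.07), DCAF15 (0.12) and TMEM41A (0.13), and TAP1 to PIK3R2 (0.08), PTPN1 (0.09) and NRP1 (0.09). HLA-C was closest to PTPN1 (0.06), TNPO2 (0.06) and BBX (0.06), HLA-G to BBX (0.07), SLC67A1 (0.08) and VPS37B (0.08), and B2M to RAB5IF (0.12), ZNF813 (0.14) and ARHGAP15 (0.14). For HLA-B, PPP1R12C (0.08) was the nearest gene with a symbol, and for TAP2, FANCL (0.08) and NAA35 (0.08). These distances use the same arrays as the comparison and are a description.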

How the data were processed

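Scanner output of 10 one-colour Agilent arrays of MEG-01 RNA was used. The authors deposited Feature Extraction (version 10.7.3.1 in the scanner output) processed signals, which are background-subtracted intensities, with median signal and background intensities and spot flags, and a table of their normalized log2 values for 29271 probes. Per the methods these are relative to the log of a geometric mean of controls, without saying whether the controls are samples or probes, and the column medians were 4.77 to 5.15. Here, cyclic loess (limma 3.58.1, R 4.3.3, 3 iterations) was applied to the log2 processed signals after 4259 control spots were removed. Outlier spots were set missing, which removed no member's value on any array, and replicate spots were averaged per probe. A probe needed 3 or more arrays of one group well above background to be kept (20648 were), and a gene is its kept probe of highest mean signal. Groups were fitted with limma (lmFit, eBayes, Benjamini-Hochberg at 0.05 over 17379 genes), and single genes or pairs were tested by exact two-sided permutation. The methods' t-test was an alternative. Symbols came from matching accessions of 24910 of 42405 probes to RefSeq (GRCh38.p14), and all 9 members matched.

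The members, lists and tests were chosen with earlier results of these data known. Named pathway genes are the 2 largest rises and 2 largest falls of each list among those with adjusted p under 0.05, plus NLRC5, RFX5 and IRF1 whatever their p. Not every listed gene is reported here. Genes most like a member are the 3 with the smallest root mean square difference. The column of mean signals, planned for a normexp correction, was not used, and the median signal with an offset of 50 took its place. Tests were tried on simulated data. The number of arrays limits the precision. Replicates shared numbers across groups, but the labels do not tie equal numbers to each other.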

Additional observations from a re-analysis of the deposited data

Results flagged for a closer look

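Of 128 groups of 5 arrays examined for the members and the tested pathway genes, 13 held an array set apart from the other 4 by Dixon's criterion, which chance gives in about 1 in 20 groups. In 8 of these the array was miR-1225-3p replicate 5. Its log2 signals were 13.50 for HLA-E (next 12.82), 9.78 for CANX, 9.44 for PSME1, 12.83 for PSMB5, 7.82 for IRF1 and 8.85 for IFNGR2, each the highest of its group, and 8.60 for HSPA5 and 5.36 for IFNAR1, each the lowest. Among the other miR-1225-3p arrays, replicate 4 was apart for PSME2 at 14.87. Scrambled replicate 1 was apart for HLA-E at 13.98, above the next at 13.72, for POMP at 6.29 and for IFNAR1 at 5.76. Scrambled replicate 5 was apart for the dimmest TAPBP probe at 7.13, above the next at 6.79. PSME2 and IFNAR1 were named after their values were seen.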

How the results depend on the processing

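The counts of calls and the members' log2 fold changes were recomputed under 27 alternatives, 10 of which left out an array. Pair differences were recomputed only for 4 pairs under the scalings. HLA-F and TAPBP passed in 24 of them and HLA-E in 23, each with its sign kept in all, whereas HLA-G passed in 10, TAP1 in 12, TAP2 in 11, HLA-C in 8, HLA-B in 4 and B2M in 1. Members called were 0 without normalization (2 with an unadjusted p under 0.05 by limma), 3 without a filter on dim probes, 3 within slide 1, 0 within slide 2 (0 at an unadjusted p under 0.05) and 3 to 8 with an array left out. Genes called over the whole array were 1266 without normalization, 3411 without a filter, 12389 with array weights, 4500 within slide 1, 0 within slide 2 (1220 unadjusted) and 2129 to 9624 with an array left out. For the pathway lists the counts were 2, 12, 38, 16, 0 (3 unadjusted) and 10 to 33. Under the 75th percentile the log2 fold changes of HLA-B, HLA-C, HLA-G and TAP1 reversed to 0.27, 0.29, 0.31 and 0.0056, and that of B2M reversed to -0.058 with array weights, and lay between -0.047 (without scrambled replicate 1) and 0.19 with an array left out. The cause was not tested. With the replicate block limma called 0 members, 0 genes and 0 pathway genes (6, 7474 and 28 at an unadjusted p under 0.05), but correlations of same-numbered arrays' deviations were -0.40 to 0.07, so the numbers do not pair the arrays. The methods' t-test with Benjamini-Hochberg adjustment called 6 members, all lower, and 8 at its unadjusted threshold. Over all 17379 genes tested it called 4677, and 8284 at the unadjusted threshold. HLA-C (adjusted p = 0.0340 by this t-test) was among the 6 members, and TAP2 was not.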
